A study of Mus musculus with 3 samples.

Results

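Immune checkpoint receptors and ligands are surface or secreted proteins through which one cell restrains or licenses another. The 8 genes described here are Lag3, Havcr2, Vsir, Cd86, Cd274, Lgals9, Cd47 and Sirpa, found by symbol among 31053 measured genes. They were chosen by values measured in these same cells, namely their levels across populations gated on marker genes and the level of Lag3 against the percent of mitochondrially encoded (mt-) transcripts, so both patterns are given as descriptions with no test.

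Single tdTomato-positive cells were collected from both hippocampi of mice and sequenced in 3 droplet runs of a single group. Every animal carried a tamoxifen-inducible Cre at the Cx3cr1 locus (Cx3cr1CreERT2/+), a Cre-dependent reporter (Rosa26tdTomato/+) and NestinTK-eGFP/+, and received tamoxifen at 100 mg/kg on 4 days; strain and age are not given in the sources used here. Because Cx3cr1 drives the Cre, the sort takes microglia together with related macrophages. The labels describe 12 animals, 6 male and 6 female, without assigning them to runs, so the spread between runs may be technical. In the tests the run was a block, so p-values measure only how the difference between paired sums of cells varies over runs. They do not measure variation between animals.

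LAG3 is an inhibitory receptor best known on T cells, where it binds MHC class II. HAVCR2, also called TIM-3, is an inhibitory receptor for which galectin-9, the product of Lgals9, is a described ligand. VISTA, encoded by Vsir, acts as a receptor and as a ligand on myeloid and T cells. SIRPA on myeloid cells binds CD47 on other cells and restrains phagocytosis. CD86 is the ligand of CD28 and CTLA4 on T cells, and PD-L1, encoded by Cd274, is the ligand of PD-1 and is known to respond to interferons.

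After cells were kept with at least 1000 UMIs (barcodes that count captured RNA molecules), at least 500 genes and at most 10% mt- UMIs, the runs held 6993, 6720 and 6078 cells with medians of 4425, 3438 and 3696 UMIs. Between 97.7% and 98.4% of cells in a run passed the microglia gate, which asked for UMIs of at least 4 of 8 markers such as P2ry12 and Tmem119. Kept cells of run pairs shared 7 or 8 barcodes. Cells with UMIs of Xist as well as of Y-linked genes, which can arise when cells of a male and a female share a droplet, made up 3.39%, 1.68% and 2.85% of the runs. Summed counts differed between runs more than sampling allows, with a chi-square per degree of freedom of 33.1 to 72.9 against 1.10 to 1.18 between random parts of a run. An immediate early gate (Fos, Egr1 and similar genes) took 433 microglia of run 3 but 9 and 14 of runs 1 and 2.

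Microglia that passed no state gate numbered 17793 and serve as the reference. States within microglia were gated on their own markers, with overlap allowed: interferon-responsive (232 cells, at least 3 of 11 markers such as Ifit3 and Isg15), disease-associated (115 cells, at least 3 of 7 measured markers such as Lpl and Cst7), chemokine (781 cells, at least 2 of 4 genes such as Ccl3 and Ccl4) and carrying astrocyte transcripts (180 cells). Border-associated macrophages (169 cells, at least 3 of 7 markers such as Mrc1 and Pf4) and MHC class II-high cells (109 cells) were gated ahead of microglia. Levels are CPM, a gene's UMIs per 1000000 UMIs summed over the cells of a population in a run.

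The 8 genes lie on 6 autosomes of the mm10 build (GRCm38), in gene models of the GENCODE M21 annotation that span exons and introns. The receptors are Lag3 (chr6:124904361-124911705, minus strand), Havcr2 (chr11:46454935-46481255, plus strand), Vsir (chr10:60346851-60372684, plus strand) and Sirpa (chr2:129592835-129632228, plus strand). The ligands are Cd86 (chr16:36603869-36666081, minus strand), Cd274 (chr19:29367455-29388095, plus strand), Lgals9 (chr11:78962974-78984946, minus strand) and Cd47 (chr16:49800533-49915010, plus strand). At most 2.36% of the 31-base words of any of these genes, the value for Cd274, also occurred in transcripts of another gene. Vsir overlaps Cdh23, which lies on the opposite strand and had a mean of 19.6 CPM in microglia. Whether counting used strand is not given in the sources used here.

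All 8 genes were counted in microglia of every run. Lag3 stood at 283, 372 and 257 CPM in microglia of runs 1, 2 and 3, highest in run 2. Havcr2 had 168, 166 and 195 CPM. Vsir had 1095, 1292 and 991 CPM and Sirpa had 781, 950 and 900 CPM, again with the highest value in run 2. The inhibitory receptors thus did not share an order across runs, since Havcr2 was highest in run 3. Cd86 varied least, at 257, 273 and 259 CPM. Lgals9 had 135, 173 and 132 CPM, and Cd47 had 292, 272 and 304 CPM. Cd274 was scarce, with 144, 81 and 127 UMIs in all microglia of a run, or 4.45, 3.36 and 5.44 CPM.

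At an equal depth of 2000 UMIs per cell, Lag3 was counted in 41.9% of 18812 microglia, with 590 shallower cells left out. The exact binomial interval was 41.2 to 42.6%, which covers counting error only. By run the share was 40.3%, 47.7% and 37.6%, a wider spread than that interval. Without thinning it was 64.9%, 64.8% and 55.9% in the 3 runs. The thinned shares that follow pool the runs in the same way. A background estimate came from 42 choroid plexus-gated cells, which should lack myeloid receptors. This gate still carried P2ry12 at 1797 and 1611 CPM in runs 1 and 2, against 3748 and 4960 CPM in microglia. Median depth of choroid-gated cells was 2952 UMIs against 3833 in microglia. Lag3 was counted in 23.8% of these cells and Havcr2 in 4.76%, against 29.6% of microglia for Havcr2. The shares for Vsir were 88.4% in microglia and 54.8% in choroid-gated cells, and for Sirpa 80.9% and 45.2%. Among ligands the microglia share was 40.6% for Cd86, 23.8% for Lgals9 and 43.2% for Cd47, against 35.7%, 14.3% and 33.3%. For these 3 ligands the microglia share lies inside the interval of the choroid-gated share (21.6 to 52.0% for Cd86, 5.43 to 28.5% for Lgals9 and 19.6 to 49.5% for Cd47). The share among these few thinned cells thus does not separate the 2 gates, but pooled CPM over all their cells did. Cd86 was at 162 CPM (interval 115 to 223, counting error only) in choroid-gated cells and 262 CPM in microglia. Lgals9 was at 76.8 (45.5 to 121) and 146 CPM, and Cd47 at 145 (100 to 203) and 290 CPM. Cd274 was counted in 0.861% of microglia and in 0 of 42 choroid-gated cells, for which the interval reaches 8.41%.

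**Figure D1:**
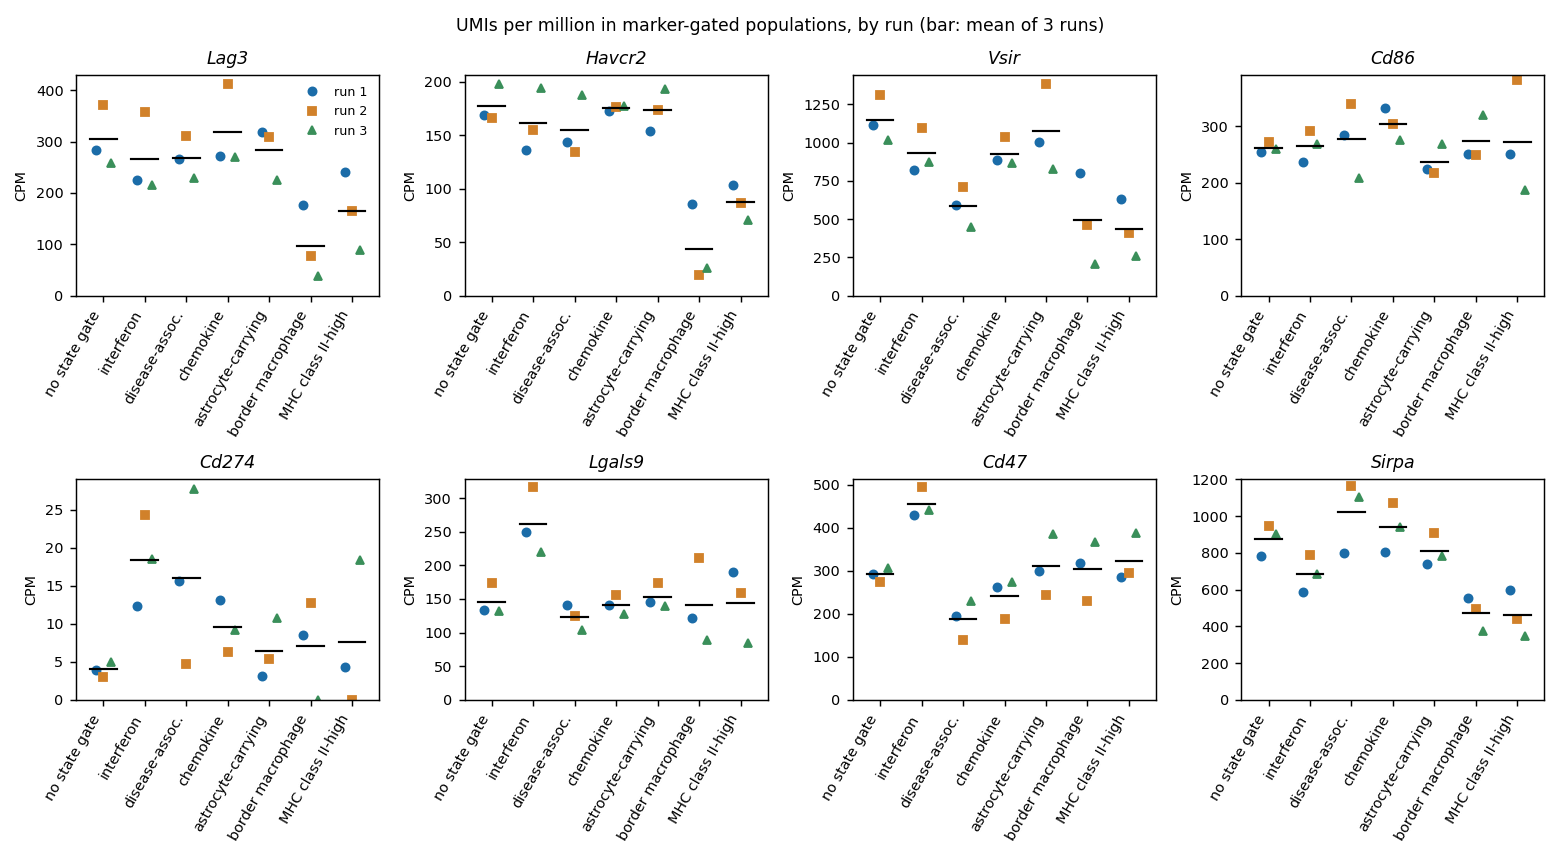
Level of each gene in CPM (vertical axes, from 0) in 7 marker-gated populations (horizontal axes), with a point per run and a bar at the mean of 3 runs. Lgals9 and Cd47 are highest in the interferon gate, Vsir and Cd47 are low in the disease-associated gate, and Lag3 and Havcr2 are lowest in border macrophages.

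In interferon-responsive microglia the ligands Lgals9, Cd47 and Cd274 were higher than in the reference, while no receptor was. Lgals9 stood at 249, 317 and 219 CPM against 133, 173 and 132 CPM. Each interferon-gated run lay above every reference run. The log2 ratio, on CPM plus 1, was 0.83 ± 0.09 (SD, n = 3 runs), or 1.78-fold. Cd47 stood at 429, 496 and 441 CPM against 293, 275 and 307 CPM, with no overlap and a log2 ratio of 0.64 ± 0.18 (n = 3), which fell to 0.54, under 1.5-fold, without run 2. Cd274 rested on 8, 6 and 6 UMIs, at 12.4, 24.4 and 18.5 CPM against 3.97, 3.06 and 4.96 CPM. The counting intervals of its 2 populations did not overlap in any run; in run 1 they were 5.35 to 24.4 CPM and 3.28 to 4.75 CPM.

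Of the 7 members with at least 10 CPM in the reference, 2 were higher by at least 1.5-fold on average with the same direction in every run, and 0 were lower. Of 8160 genes with that level, 2.39% were so higher and 5.4% so lower, and since the members were chosen with these levels known nothing is read from the comparison. Cd274 did not reach that level. The median log2 ratio was -0.14 over the members and -0.10 over all 8160 genes. Among the receptors, Sirpa had a log2 ratio of -0.36 ± 0.08 (n = 3), Vsir -0.30 ± 0.12, Lag3 -0.22 ± 0.15 and Havcr2 -0.14 ± 0.15, all negative in each run. Cd86 lay at 0.01 ± 0.11. The microglia marker sum of the interferon gate was 11835 to 15752 CPM against 15136 to 18997 CPM in the reference, and its monocyte and neutrophil marker sum was 20.3 to 31 CPM against 3.33 to 5.06 CPM, from 3 of 8 markers with S100a8, S100a9, Ly6c2, Retnlg and Hp at 0. The part of these in the ratios was not tested.

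Because Lgals9, Cd47 and Cd274 were high in the same gate, their promoter sequences were searched for a pattern of interferon-stimulated response elements (GAAA, any 2 bases, GAAA) and for TTCNNNGAA, the pattern of STAT binding sites, on both strands. Sequences run from 250 bases before to 50 bases after the gene's start, 5′ to 3′ on the gene's strand, from RefSeq (GRCm38.p6), which held 5 of the 8 members (Havcr2, Vsir, Cd274, Lgals9 and Cd47). Capitals mark matches to the first pattern, here on the opposite strand. The windows are chr11:78984875-78985174 for Lgals9 (minus strand), chr19:29367188-29367487 for Cd274 (plus strand) and chr16:49855404-49855703 for the first of 2 starts of Cd47 (plus strand). Both RefSeq starts of Cd47 lie within the gene model given above rather than at its 5′ end, so the sequence at that end was not searched.
Lgals9: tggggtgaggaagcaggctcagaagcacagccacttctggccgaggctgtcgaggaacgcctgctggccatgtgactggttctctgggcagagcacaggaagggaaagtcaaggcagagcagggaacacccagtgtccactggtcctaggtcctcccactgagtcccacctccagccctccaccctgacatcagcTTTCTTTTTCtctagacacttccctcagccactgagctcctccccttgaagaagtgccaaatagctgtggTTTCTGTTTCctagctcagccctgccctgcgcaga
Cd274: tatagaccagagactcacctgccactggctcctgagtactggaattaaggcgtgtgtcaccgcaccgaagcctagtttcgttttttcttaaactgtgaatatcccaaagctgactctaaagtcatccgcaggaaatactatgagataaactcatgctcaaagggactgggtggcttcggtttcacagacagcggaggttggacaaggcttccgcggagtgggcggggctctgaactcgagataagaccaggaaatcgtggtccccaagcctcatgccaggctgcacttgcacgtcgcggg
Cd47: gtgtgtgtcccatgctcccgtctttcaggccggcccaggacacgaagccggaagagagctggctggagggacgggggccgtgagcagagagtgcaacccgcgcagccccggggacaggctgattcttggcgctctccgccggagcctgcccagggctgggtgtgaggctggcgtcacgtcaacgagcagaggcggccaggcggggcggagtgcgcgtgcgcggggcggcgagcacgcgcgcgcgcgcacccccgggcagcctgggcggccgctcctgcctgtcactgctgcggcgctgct

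The Lgals9 window held 2 matches to the response element pattern, at bases 196 to 205 and 266 to 275 counted from 1 at the 5′ end, so that the first lies before the start and the second after it. The windows of Havcr2, Vsir, Cd274 and Cd47 held 0. The pattern occurred in 3.44% of 32851 promoters of the same length, and in the promoters of 5 of the 8 interferon gate markers that had one (Ifit1, Ifit3, Ifit3b, Isg15 and Rsad2). TTCNNNGAA occurred in 8.30% of promoters and in none of the members'. A match describes the letters only.

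In disease-associated microglia, Vsir and Cd47 were lower and the receptors Lag3, Havcr2 and Sirpa kept levels near the reference. Vsir stood at 591, 708 and 450 CPM against 1116, 1308 and 1015 CPM, with every gated run below every reference run. Its log2 ratio was -0.99 ± 0.16 (SD, n = 3 runs), 50.3% of the reference. Cd47 stood at 195, 139 and 229 CPM against 293, 275 and 307 CPM, a log2 ratio of -0.66 ± 0.29, again with no overlap; without run 2 it was -0.50, short of 1.5-fold. These 2 of 7 members were lower and 0 were higher, where 20.3% of all genes were lower and 5.74% higher, so a low value was common in this gate. The median log2 ratio was -0.21 over the members and -0.24 over all genes. Sirpa lay at 0.20 ± 0.15, Cd86 at 0.05 ± 0.33, Lag3 at -0.18 ± 0.08, Havcr2 at -0.21 ± 0.12 and Lgals9 at -0.24 ± 0.29 (n = 3 each). Cd274 had 7, 1 and 4 UMIs, or 15.7, 4.78 and 27.7 CPM, and its counting interval overlapped that of the reference in run 2. The microglia markers themselves summed to 8094 to 10337 CPM in this gate; P2ry12 had 1490, 1769 and 949 CPM against 3823, 5056 and 3673 CPM. Whether the low Vsir is part of that wider fall was not tested.

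**Figure D2:**
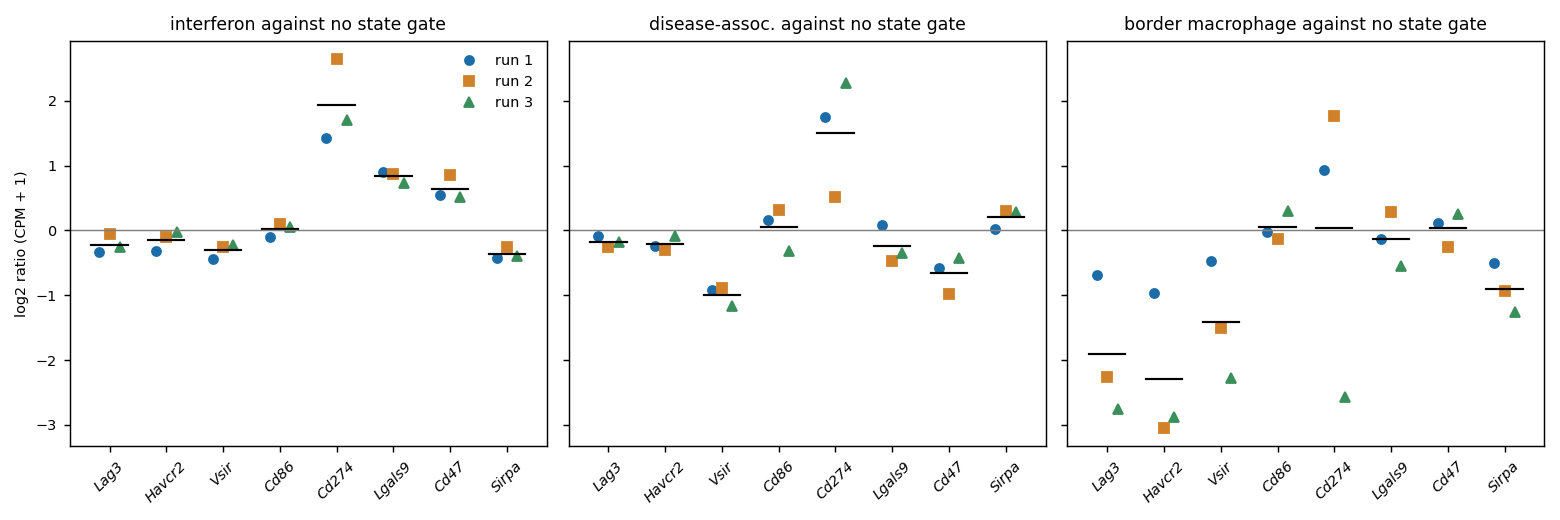
Log2 ratio of each gene (CPM plus 1) to microglia with no state gate, for the interferon, disease-associated and border macrophage gates, with a point per run and a bar at the mean. In the interferon gate Lgals9 and Cd47 lie above 0 in every run, and in the border macrophage gate run 1 lies nearest to 0 for Lag3, Havcr2, Vsir and Sirpa.

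Neither the chemokine gate nor the gate on astrocyte transcripts held a member past 1.5-fold among the 7 that could be called. In the chemokine gate 1.85% of all genes were higher and 1.58% lower, and in the astrocyte-transcript gate 1.65% and 5.29%. Vsir was again below the reference in chemokine-gated microglia, at 886, 1036 and 864 CPM and a log2 ratio of -0.30 ± 0.06 (n = 3). Cd86 lay at 0.21 ± 0.15 there, positive in each run. Lag3 was at 0.05 ± 0.11 and -0.10 ± 0.23 in these 2 gates. Cd274 had 13, 6 and 17 UMIs in chemokine-gated cells, or 13.1, 6.33 and 9.20 CPM, above the reference in each run. In the immediate early gate, which only run 3 filled, the ratio to the reference of that run was 0.904 for Lag3, 0.861 for Vsir and 0.859 for Cd86, and it ranged from 0.859 to 0.989 over the members other than Cd274.

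In border-associated macrophages the receptors were low and the ligands Cd86 and Cd47 were near their microglial level. Lag3 stood at 177, 76.8 and 37.3 CPM from 146, 12 and 10 UMIs, against 284, 371 and 259 CPM. Havcr2 stood at 86.0, 19.2 and 26.1 CPM against 169, 166 and 198 CPM. Vsir had 804, 461 and 209 CPM and Sirpa 552, 493 and 377 CPM, and for all 4 receptors every macrophage run lay below every reference run. The log2 ratios were -1.90 ± 1.09 for Lag3, -2.30 ± 1.15 for Havcr2, -1.42 ± 0.90 for Vsir and -0.90 ± 0.38 for Sirpa (SD, n = 3 runs). These 4 of 7 members were lower and 0 higher, against 27% and 5.77% of all genes. Cd86 lay at 0.05 ± 0.22, Cd47 at 0.04 ± 0.26 and Lgals9 at -0.13 ± 0.42, with signs that differed between runs. Cd274 had 7, 2 and 0 UMIs. Fewer UMIs of a gene in a gate and fewer cells that express it cannot be told apart from these sums.

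Of the 168 Lag3 UMIs in macrophages, 146 came from run 1. In that run 32.5% of macrophage-gated cells had transcripts of Xist and of Y-linked genes, against 2.86% and 5.56% in runs 2 and 3, and P2ry12 was at 2328 CPM against 940 and 358 CPM. Without run 1 the log2 ratios of Lag3 and Havcr2 were -2.51 and -2.96. When cells that also passed the microglia gate were set aside, an alternative added after the data had been seen, 56 macrophages remained. They held 2 UMIs of Lag3 and 1 of Havcr2 in all, or 8.61 CPM (exact Poisson interval 1.04 to 31.1, counting error only) and 4.31 CPM (0.109 to 24). The same cells held 45 UMIs of Vsir, 78 of Sirpa, 51 of Cd86, 18 of Lgals9 and 86 of Cd47. Cd47 was thus at 370 CPM and Sirpa at 336 CPM in cells with next to no Lag3. At 2000 UMIs per cell the share of macrophages with a Lag3 UMI, 14.4%, was below that of choroid-gated cells and is not read as expression.

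In MHC class II-high cells the receptors were again low. Lag3 stood at 242, 166 and 89.4 CPM, Havcr2 at 104, 86.5 and 71.0 CPM, Vsir at 634, 411 and 260 CPM and Sirpa at 600, 440 and 347 CPM. The log2 ratios were -0.97 ± 0.67, -1.03 ± 0.39, -1.48 ± 0.59 and -0.96 ± 0.51 (n = 3), so that 4 of 7 members were lower and 0 higher, against 30.9% and 5.53% of all genes. Cd47 lay at 0.13 ± 0.19, Cd86 at -0.0049 ± 0.48 and Lgals9 at -0.09 ± 0.58. In the reference microglia the 4 genes used for the gate summed to 35.4, 38.8 and 40.4 CPM, of which Cd74 held 21.8, 26.0 and 23.6 CPM. Cells with UMIs of at least 3 of these 4 genes had been taken out ahead of microglia. The gating thus keeps this sum low, and nothing is read from it about the ligand of LAG3. Dendritic cell markers summed to 104, 79.3 and 684 CPM in this gate, with all 5 detected, and monocyte and neutrophil markers to 125, 296 and 618 CPM from 4 of 8, with S100a9, Ly6c2, Retnlg and Hp at 0. Their part in the low receptor levels was not tested. Of the 40 cells of the gate that failed the microglia gate, 6 Lag3 UMIs and 24 Vsir UMIs were counted in all.

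The genes most like a member across the 7 populations of the level plot were found by Pearson's r of log2(CPM + 1) among 7445 genes, as a description over 7 points that share libraries. Havcr2 was the gene most like Lag3 (r = 0.996), followed by Basp1 and Lpcat1. For Vsir these were Lactb, Cx3cr1 and Cttnbp2nl (r of 0.998 to 0.994). Fcgr1, Etnk1 and Tap2 were most like Lgals9 (0.976 to 0.956), and Irgm2, Trim12a and Slfn8 most like Cd47 (0.983 to 0.970). Havcr2 was followed most closely by Ldhb, Hvcn1 and Lag3, Sirpa by Arih1, Slc12a2 and Enc1, and Cd274 by Atad2, Hist1h2ap and Ccdc124.

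In the order of mean levels, 13 of the 48 neighbouring pairs of populations kept their order in every run, and in 6 of these the run ranges did not overlap. No share over all genes is set beside these counts, so the counts and the orders below are descriptions and nothing is read from them. For Lag3 the order ran from the chemokine gate (318 CPM) through the reference (305), the astrocyte-transcript (284), disease-associated (269) and interferon gates (266) to MHC class II-high cells (166) and macrophages (97.0). The run ranges of every neighbouring pair overlapped, and MHC class II-high cells lay above macrophages within each run. For Havcr2 the ranges parted between the disease-associated gate and MHC class II-high cells, which in turn lay above macrophages within each run, and for Vsir they parted between the chemokine and disease-associated gates. For Lgals9 they parted below the interferon gate, and the astrocyte-transcript gate lay above the reference within each run. For Cd47 they parted below the interferon gate and between the reference and the chemokine gate, which lay above the disease-associated gate within each run. For Sirpa they parted between the interferon gate and macrophages, while the chemokine gate, the reference, the astrocyte-transcript gate and the interferon gate followed each other in that order within each run. For Cd86 and Cd274 no neighbours kept their order in every run.

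Lag3 was higher in microglia with a larger share of mt- UMIs. Microglia of each run were ranked by that share and divided into 5 equal groups, whose median share ran from 1.43% to 4.32% in run 1, from 1.05% to 3.63% in run 2 and from 1.33% to 4.32% in run 3. From the lowest to the highest group, Lag3 stood at 248, 259, 287, 314 and 304 CPM in run 1. In run 2 it stood at 331, 349, 386, 390 and 401 CPM, and in run 3 at 224, 246, 262, 270 and 283 CPM. The level rose at every step in runs 2 and 3 and at 3 of 4 steps in run 1. The log2 ratio of the top to the bottom group was 0.30, 0.28 and 0.33, with a mean of 0.30 ± 0.03 (SD, n = 3 runs). A mean ratio at least as high was found for 2.07% of 8155 genes. Since Lag3 was chosen with this contrast known, nothing is read from that share.

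**Figure D3:**
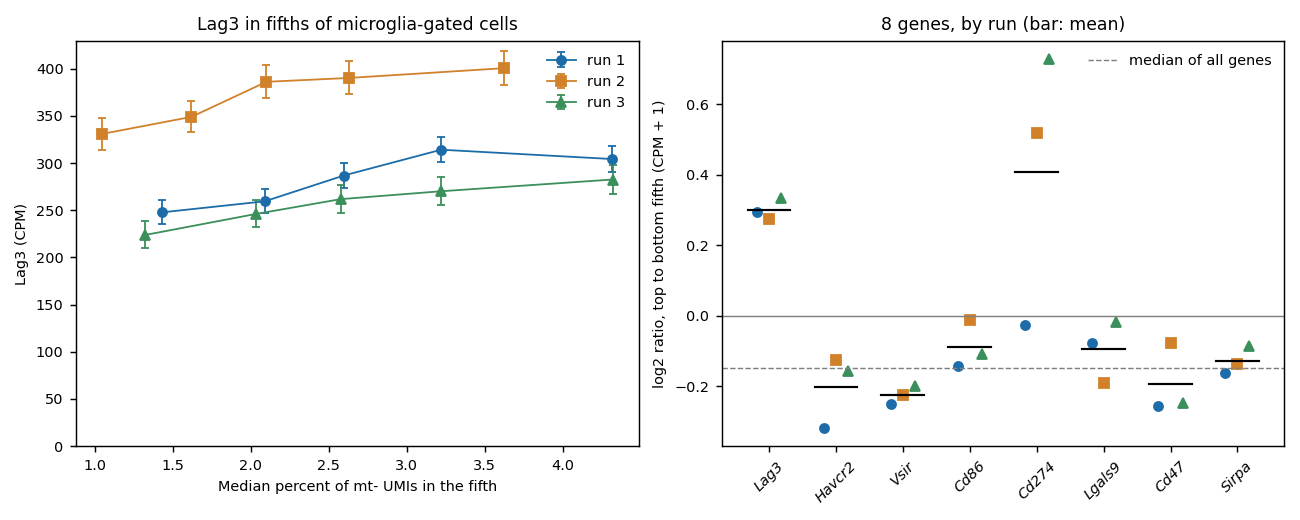
Left, Lag3 in CPM (from 0, bars are exact Poisson 95% intervals) in 5 groups of microglia per run, against the median percent of mt- UMIs in the group. Right, log2 ratio of the top to the bottom group for the 8 genes, with a point per run, a bar at the mean and a dashed line at the median of all genes; Lag3 lies above 0 in every run, at 0.28 to 0.33.

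No other member with at least 10 CPM showed this. Vsir fell from 1181, 1404 and 1040 CPM in the bottom group to 993, 1203 and 907 CPM in the top group of the 3 runs, a log2 ratio of -0.22 ± 0.03. The ratios were -0.20 ± 0.10 for Havcr2, -0.19 ± 0.10 for Cd47, -0.13 ± 0.04 for Sirpa, -0.09 ± 0.09 for Lgals9 and -0.09 ± 0.07 for Cd86 (n = 3 each). The median of all genes was -0.15, so these lay near it. By a threshold of 1.2-fold and the same direction in each run, Lag3 alone of 7 members was higher and 0 were lower, where 2.53% of all genes were higher and 18.2% lower. This threshold is lower than the 1.5-fold used for the populations, which Lag3, with ratios of 1.23, 1.21 and 1.26, did not reach. Lag3 was chosen with this contrast known, so nothing is read from the count. Cd274, with 24, 16 and 18 UMIs in the bottom group and 26, 26 and 35 in the top group, was too scarce to settle. Its log2 ratio was -0.03, 0.52 and 0.73, with a mean of 0.41 ± 0.39. With mt- UMIs left out of the denominator the ratio was 1.01, 1.60 and 1.88.

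Depth was lowest in the bottom group, and state-gated cells were most frequent in the top group of runs 1 and 2. Median UMIs per cell ranged over the 5 groups from 4096 to 4579 in run 1, from 3237 to 3540 in run 2 and from 3504 to 3771 in run 3. The share of cells passing a state gate rose from 4.46% to 10.5% in run 1 and from 3.33% to 8.16% in run 2, and it was 12.6% and 14.8% in the outer groups of run 3; without those cells the log2 ratio was 0.31. Within cells holding Xist UMIs and no Y-linked UMI the ratio was 0.36, 0.36 and 0.47 in the 3 runs, and within cells holding Y-linked UMIs and no Xist 0.32, 0.16 and 0.21. The difference between these classes was not tested.

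The members were then compared between microglia split by sex-linked transcripts, a contrast that played no part in choosing them. Cells with at least 2 Xist UMIs and no Y-linked UMI (2688, 3497 and 2494 cells) were set against cells with at least 1 UMI of 4 Y-linked genes and no Xist (2324, 1320 and 1620 cells), with UMIs summed per run and tested by edgeR's quasi-likelihood test with the run as a block. None of the 8 members was called at an adjusted p of 0.05, where 0.342% of 11401 genes were, 21 higher (0.184%) and 18 lower (0.158%) with Xist. DESeq2 called none of the members either. An unadjusted edgeR p under 0.05 was found for 1 of 8 members and for 1083 of 11401 genes. That member was Lgals9, at 142, 179 and 140 CPM with Xist and 132, 167 and 126 CPM with Y-linked UMIs. It was higher in 3 of 3 runs by a log2 change of 0.11 (SE 0.04), with an edgeR adjusted p of 0.411.

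The intervals bound how far the members can differ between these classes. Lag3 stood at 291, 378 and 254 CPM with Xist and 276, 379 and 251 CPM with Y-linked UMIs, and its level with Xist was 102% of that with Y-linked UMIs (95% interval 95.8 to 108%). The interval was 97.1 to 110% for Havcr2, 93.5 to 105% for Vsir, 95.4 to 108% for Sirpa, 93.2 to 105% for Cd86 and 96.2 to 108% for Cd47. That of Lgals9, at 102 to 115%, was the only one to leave out 100%, and it is not adjusted for the number of genes. That of Cd274 was wide, at 90.0 to 157%. Of a wider list of checkpoint genes, 0 of 22 tested were called in either direction. An unadjusted edgeR p under 0.05 was found for 4 of them and for 1083 of 11401 genes. The number of genes called over the whole table was not stable: it was 84 without run 1 and 133 without run 2, and 0 without the run as a block (72 at an unadjusted p under 0.05). In none of these was a member called.

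**Figure D4:**
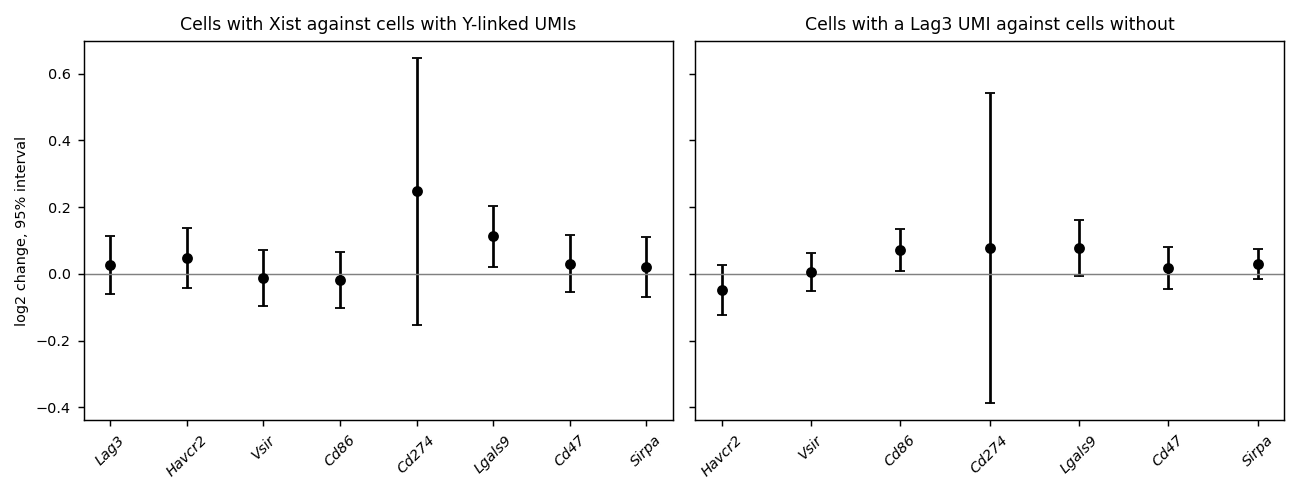
Log2 change with its 95% interval (bars) from edgeR for microglia with Xist UMIs against microglia with Y-linked UMIs (left) and for microglia with a Lag3 UMI against those without (right, Lag3 left out). All points lie within 0.25 of 0, and the interval of Cd274 is the widest on both sides.

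Among microglia, no difference in the other members was detected between cells in which Lag3 was counted and the rest. Each microglia-gated cell was thinned to 2000 UMIs, and the cells with a Lag3 UMI (2725, 2987 and 2177) were compared with those without (4034, 3270 and 3619). None of the other 7 members was called by edgeR's quasi-likelihood test, where 0.626% of 10855 genes were, 65 higher (0.599%) and 3 lower (0.0276%) with Lag3; DESeq2 called none of the members, giving no adjusted p for Cd274 and Lgals9. Havcr2 stood at 172, 161 and 192 CPM with a Lag3 UMI and 171, 176 and 206 CPM without, 96.7% of the level without (95% interval 91.8 to 102%). Without thinning, 64.9%, 64.8% and 55.9% of microglia had a Lag3 UMI, so many cells without one at 2000 UMIs still carried Lag3 transcripts. The split thus rests in large part on sampling, and its intervals do not bound how a member varies with the Lag3 level of a cell. It therefore could not test the likeness of Havcr2 to Lag3 seen across populations. An unadjusted edgeR p under 0.05 was found for 1 of the 7 members and for 875 of 10855 genes. Cd86 was that member, higher in 3 of 3 runs by a log2 change of 0.07 (SE 0.03). Its unadjusted edgeR p was 0.0304 and its edgeR adjusted p was 0.535. Its interval, not adjusted for the number of genes, was 100.5 to 109.7% of the level without. The interval was 96.5 to 104% for Vsir, 98.9 to 105% for Sirpa, 96.9 to 106% for Cd47 and 99.6 to 112% for Lgals9, and 76.5 to 146% for Cd274.

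Among all genes, 2 of the 68 called changed by a log2 of at least 0.5, and they are named after their values were seen. Apoe, the lipid carrier apolipoprotein E, averaged 912 CPM with a Lag3 UMI and 644 CPM without, a log2 change of 0.52 (SE 0.03, edgeR adjusted p = 3.9e-13). Klf2, a transcription factor of quiescent cells, averaged 39.5 CPM with and 63.9 CPM without, a log2 change of -0.69 (SE 0.07, edgeR adjusted p = 2.4e-07). Both moved the same way in 3 of 3 runs. The median share of mt- UMIs was 2.70%, 2.14% and 2.64% with a Lag3 UMI and 2.54%, 2.02% and 2.53% without. Without the run as a block no gene was called, with 31 at an unadjusted p under 0.05.

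Of 41 other checkpoint genes on a list written from general knowledge, 40 were measured, and 7 of these had no UMI in any microglia (Ctla4, Tigit, Cd226, Vtcn1, Cd70, Tnfsf4 and Adora2a). These include the T-cell receptor CTLA4, for which CD86 is a ligand; CD28, the other receptor of CD86, was likewise near 0, with 2, 0 and 0 UMIs in the reference. Pdcd1, encoding PD-1, had 3.46, 5.03 and 3.04 CPM in microglia. In the tested comparison by Lag3 UMI, 0 of 22 genes of the list were called. An unadjusted edgeR p under 0.05 was found for 2 of them and for 875 of 10855 genes. Of the 14 with at least 10 CPM in the reference, the interferon gate had 1 higher and 2 lower, the disease-associated gate 1 higher and 4 lower, macrophages 2 higher and 5 lower, and MHC class II-high cells 1 higher and 6 lower, to be read against the shares of all genes given above. Lair1, an inhibitory receptor for collagen, stood at 828, 768 and 937 CPM in the reference and at 535, 333 and 187 CPM in macrophages. Entpd1, the ectoenzyme CD39, had 427, 340 and 435 CPM in the reference and 323, 128 and 213 CPM in macrophages. Cd48, a ligand of CD244, went the other way, at 120, 109 and 118 CPM in the reference and 174, 269 and 317 CPM in macrophages, and it was also at 193, 177 and 194 CPM in the disease-associated gate. Icosl, the ligand of ICOS, was at 57.3, 69.1 and 83.3 CPM in the interferon gate against 41.8, 39.5 and 48.1 CPM. Nectin2, Cd276, Cd200r1, Pilra, Hmgb1, Ptpn6, Ptpn11 and Tgfb1 also reached 20 CPM in a population, with means in the reference from 20.6 CPM for Cd276 to 504 CPM for Tgfb1.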

How the data were processed

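The authors deposited raw counts, UMIs per gene and barcode, for 3 runs; the headers of these files give the counting software as version 3.0.2 for run 1 and 3.1.0 for runs 2 and 3, and the submitters' processing notes name Cell Ranger, Seurat 4.0 and mm10. Whether barcodes were further filtered is not given in the sources used here. The lowest total per barcode was 500 or 501 UMIs, and runs held 24225612 to 34140879 UMIs. Members, lists and populations were chosen with earlier results of these data known, and gate thresholds were set after marker detection had been seen. No doublet caller was run; cells with Xist and Y-linked UMIs were left out as an alternative.

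Cells were gated on markers without clustering, UMIs were summed per run and scaled to CPM, and log2 ratios used a pseudocount of 1 CPM. The 2 contrasts not used in choosing the members were tested with edgeR 4.0.16 in R 4.3.3 (glmQLFit and glmQLFTest, TMM, filterByExpr, Benjamini-Hochberg over all genes tested), with the run as a block because each run gives a pair of sums from its own library, which is where the pairing comes from. DESeq2 1.42.0 was an alternative. The common dispersion was 0.00116 for the comparison by Xist, since parts of the same libraries vary little. For that by Lag3 UMI it was 9.8e-05, the lower end of the range edgeR searches, and so a bound rather than an estimate. With values this low, small changes of abundant genes can be called. Tested on simulated counts, the comparison by Xist recovered 44%, 72%, 82% and 94% of genes changed by 1.25, 1.5, 2 and 3-fold among 11423 genes with 2.67% false calls, and that by Lag3 UMI 48%, 68%, 90% and 96% among 10860 with 3.21%. The simulation gave every gene the common dispersion and no difference between paired sums beyond the changes put in. Real counts can vary more, so these shares are not error rates of the tests. Intervals are 95% and cover counting error only, except those of the tests. The text names the 8 members in every comparison, the 3 genes most like each among genes with at least 20 CPM in a population (without markers, ribosomal and mt- genes; those of Cd86 are not reported here), and genes of the wider list with at least 20 CPM in a population. Pdcd1, Cd28 and the genes with no UMI fall outside that rule and were named after their values were seen. Gene IDs matched GENCODE M21 in 30934 of 31053 cases (99.6%). Alternatives changed the gates, the cell filter, the denominator, the depth, the tool and the runs used.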

Additional observations from a re-analysis of the deposited data

How the results depend on the processing

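The 12 pairs of a member and a population past 1.5-fold became 10 to 13 under 9 alternatives, 10 to 12 of them when each run was left out. The log2 ratio of Lag3 between the top and bottom groups by mt- UMIs was 0.30; it was 0.35 with mt- UMIs left out of the denominator, 0.27 with groups ranked within classes of UMI count, 0.40 in cells with Xist UMIs only, 0.23 in cells with Y-linked UMIs only, and 0.29 to 0.32 when each run was left out. The cause of these shifts was not tested. In the comparison by Xist, 39 genes were called; the count was 15 with DESeq2, 161 with no filter on low counts, 0 with no replicate block (the pairing of sums from the same run), 95 without state-gated microglia, and 37 to 133 when each run was left out. In that by Lag3 UMI, 68 were called, against 0 with no replicate block, 26 at 1000 UMIs per cell, 122 at 3000 and 59 to 64 when each run was left out. No member was called in any of the 88 and 98 fits of single members under alternatives, and the lowest adjusted p was 0.338 and 0.452, both for Lgals9. Of the wider list, Pdcd1 and Fgl2 passed the threshold in the comparison by Xist without run 2 (adjusted p = 0.0183 and 0.04). Depth limits Cd274, with 352 UMIs in all microglia, and the macrophage, MHC class II-high and disease-associated gates, with as few as 22 cells in a run.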

Other observations

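Among genes of the wider checkpoint list that were scarce in microglia, Fgl2 and Cd40 had higher levels in other gates. Fgl2, a fibrinogen-like protein with secreted and membrane forms, had 5.41, 4.53 and 7.52 CPM in microglia with no state gate. It had 68.1, 85.3 and 55.6 CPM in the interferon gate, from 44, 21 and 18 UMIs, and 138, 123 and 150 CPM in MHC class II-high cells. Every run of both gates lay above every run of the reference. Cd40, the receptor of CD40 ligand, had 14 UMIs in all 17793 reference microglia, and 1, 9 and 33 UMIs in MHC class II-high cells, or 4.31, 64.9 and 86.8 CPM. Run 3 of that gate also had the highest sum of dendritic cell markers, and their part in the Cd40 level was not tested. Border-associated macrophages were likewise above the reference in each run, by 8.25-fold for Fgl2 and 17.4-fold for Cd40 on CPM plus 1.

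Ceacam1, which encodes a described partner of TIM-3, was lower by at least 1.5-fold, with the same direction in each run, in the interferon, disease-associated, macrophage and MHC class II-high gates. It had 31.8, 30.8 and 40.1 CPM in the reference, 12.4, 8.13 and 21.6 CPM in the interferon gate and 13.4, 14.3 and 13.9 CPM in the disease-associated gate, the latter from 6, 3 and 2 UMIs. It had 15.7, 12.8 and 3.73 CPM in macrophages and 8.63, 14.4 and 5.26 CPM in MHC class II-high cells, from at most 2 UMIs in any run of the latter. In the chemokine gate it was also below the reference in each run, at 19.2, 20.04 and 32.5 CPM, 69.3% of the reference.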
